A study of Mus musculus with 21 samples.

Results

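The transcriptional response to an Ago2 edit was measured in mouse embryonic stem cells in 2 separate experiments, and the subject here is how that response differed between them. The measure is a difference of log2 fold changes: the response in Experiment 2 minus the response in Experiment 1, tested for each gene in 1 fit. It rests on 12 of the series' 21 RNA-seq libraries, 3 in each of 4 groups. In Experiment 1, cells labelled Ago2-/- (Ago2KO), with no transfection stated, were set against the unedited reporter line (W). In Experiment 2, cells labelled Ago2-/- that had received an empty plasmid (labelled Ago2KO_empty) were set against unedited cells that had received a plasmid for a mutant T6B peptide (T6B_MUT). The cells of all 4 groups share a 129S6/SvEvTac background, a GFP reporter with TRIM71 binding sites (GFP_5xT71BS) and a stable FLAG-Cas9 transgene. Culture was on gelatin, with serum and LIF in the medium. Experiment 2 has no unedited group with the empty plasmid, so that genotype and plasmid differ together there. Transfection, culture and control plasmid therefore cannot be told apart as sources of a difference. Whether an edited group is 1 clone or several is not given in the sources used here.

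MicroRNAs guide the Argonaute protein AGO2 to partly complementary sites in the 3′ UTRs of mRNAs. Argonaute then recruits TNRC6 (GW182) proteins, which bring deadenylases to the mRNA. T6B is a fragment of TNRC6B that occupies Argonaute, and its mutant form serves as the control. In embryonic stem cells the miR-290 and miR-302 clusters supply abundant microRNAs of 1 seed family, known to support the rapid cell cycle of these cells. A small and changing fraction of such cultures also enters a state resembling the 2-cell embryo, marked by Zscan4 transcripts, and some cells drift toward primitive endoderm.

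Library totals in the 4 groups ran from 29.6 M to 57.9 M counts. Of 22512 genes, 22258 passed the filter on low counts and were tested with edgeR's quasi-likelihood test. Levels are given as CPM (counts relative to TMM-scaled library size), and calls were made at a Benjamini-Hochberg adjusted p under 0.05. The stem cell markers Pou5f1, Nanog and Sox2 were high in all 12 libraries, with a lowest value of 640 CPM for Pou5f1, 341 CPM for Nanog and 282 CPM for Sox2. Of 16 fibroblast markers 10 were analysed, and their summed level was 240.2 to 269 CPM in W, 390.2 to 400 CPM in Ago2KO, 192 to 200 CPM in T6B_MUT and 231 to 279 CPM in the libraries labelled Ago2KO_empty. None of these 10 was called in the difference by edgeR, which called 2.13% of all genes, or by DESeq2 or limma-voom, and 1 had an unadjusted p under 0.05.

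The edited gene itself was called lower in Experiment 1 and not in Experiment 2, and the difference between them was not called in the main fit. Ago2 (ENSMUSG00000036698, chromosome 15, 73095844 to 73184935, minus strand, GRCm38) stood at 157, 138 and 143 CPM in W and at 44.4, 43.1 and 40.6 CPM in Ago2KO. In Experiment 2 it was 112, 142 and 110 CPM in T6B_MUT and 85.3, 161 and 45.1 CPM in replicates 1, 2 and 3 labelled Ago2KO_empty. The groups of Experiment 1 thus did not overlap, while 1 library labelled Ago2KO_empty lay above every T6B_MUT library and only replicate 3 came close to the Ago2KO libraries. The log2 fold change was −1.77 in Experiment 1 (adjusted p 0.000857, edgeR quasi-likelihood) and −0.32 in Experiment 2 (adjusted p 0.427), and their difference of 1.45 (SE 0.41) was not called (adjusted p 0.0977). It was 1.79 and called without replicate 3 labelled Ago2KO_empty (adjusted p 0.00106, edgeR quasi-likelihood), 0.88 without replicate 2 (adjusted p 0.101), 0.34 without both replicates 1 and 2 (adjusted p 0.369) and 1.45 with DESeq2, which called it (adjusted p 0.0168). Since all 3 of these libraries held more Ago2 than any Ago2KO library, and 1 of them more than any control of its experiment, every direction drawn from them below is that of libraries so labelled. An annotated gene overlaps Ago2 on the other strand, and whether counting used strand is not stated.

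Libraries labelled Ago2KO_empty also stood apart from each other in other genes. The gene Gm26917 took 3.42% of counts in replicate 2, against 0.942% in replicate 1 and 0.711% in replicate 3. Pairwise chi-square statistics per degree of freedom were 22.5 to 80.7 within this group and 3.59 to 16.6 within the other 3 groups. Ago3 reached 39.5, 52.7 and 21.7 CPM in its replicates 1, 2 and 3, against 18.8, 21.8 and 19.5 CPM in T6B_MUT, so that the order of the 3 libraries was the same as for Ago2. The part of this spread in the results below was not tested.

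Fewer genes were called for the difference than for the response in either experiment. The median SE was 0.18 for the difference, against 0.13 for each response, so these counts do not measure how far the responses agreed. An unadjusted p under 0.05 (edgeR quasi-likelihood) was found for the difference in 3365 genes. In Experiment 1, 3355 genes were called (15.1% of those tested), 1848 higher (8.3%) and 1507 lower. In Experiment 2, 7074 were called (31.8%), 3746 higher and 3328 lower. The difference itself was called for 473 genes (2.13%), of which 324 were higher in Experiment 2 (1.46%) and 149 lower (0.669%). Scaling by library totals alone in place of TMM turned this split to 269 higher and 401 lower and moved the median of all genes to −0.07. Of the 205 called genes with an absolute difference of at least 1 on the log2 scale, 195 were higher and 10 lower. For 464 of the 473 genes the sign of the difference was the same for every choice of 1 library from each of the 4 groups, which held for 7.46% of all genes tested. The calls and these signs come from the same libraries, so the signs are not a separate test. The medians over all genes were close to 0, at 0.00 for the difference, −0.01 for the response in Experiment 1 and 0.01 for that in Experiment 2.

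The count of called genes depended on single libraries. It rose to 1634, with 1000 higher and 634 lower, without replicate 3 labelled Ago2KO_empty, the library with the lowest Ago2. It was 269 without replicate 1 and 499 without replicate 2 of the same group. It was 215, with 177 higher and 38 lower, when both replicates 1 and 2 were left out. In that last fit 176 of the 473 genes, or 37.2%, were called. Beyond this group, leaving out 1 library moved it by over 1.5 times for W replicate 1 (289), Ago2KO replicate 1 (287) and T6B_MUT replicate 1 (306).

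The called genes were sorted by what each experiment showed alone. Of the 324 higher genes, 82 were called in both experiments in opposite directions. For a higher gene this pattern can only be a fall in Experiment 1 and a rise in Experiment 2. The medians of these 82 genes were −1.50 and 1.48 in that order on the log2 scale. Another 154 were called only in Experiment 2, 60 only in Experiment 1, where all 60 fell, and 27 in both with the same direction. Of the 149 lower genes, 84 were called only in Experiment 2 and 41 only in Experiment 1, where all 41 rose. The fall of the 60 and the rise of the 41 follow largely from sorting by the sign of the difference. The median differences of all the lower patterns lay between −0.50 and −0.78. Between the 2 control groups the shift was larger in absolute size than between the 2 edited groups for 112 of the 473 genes. For the other 361 the edited groups differed more. The difference is itself the gap between these 2 shifts, and the same split was not counted over all genes. No conclusion is drawn from it.

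**Figure D1:**
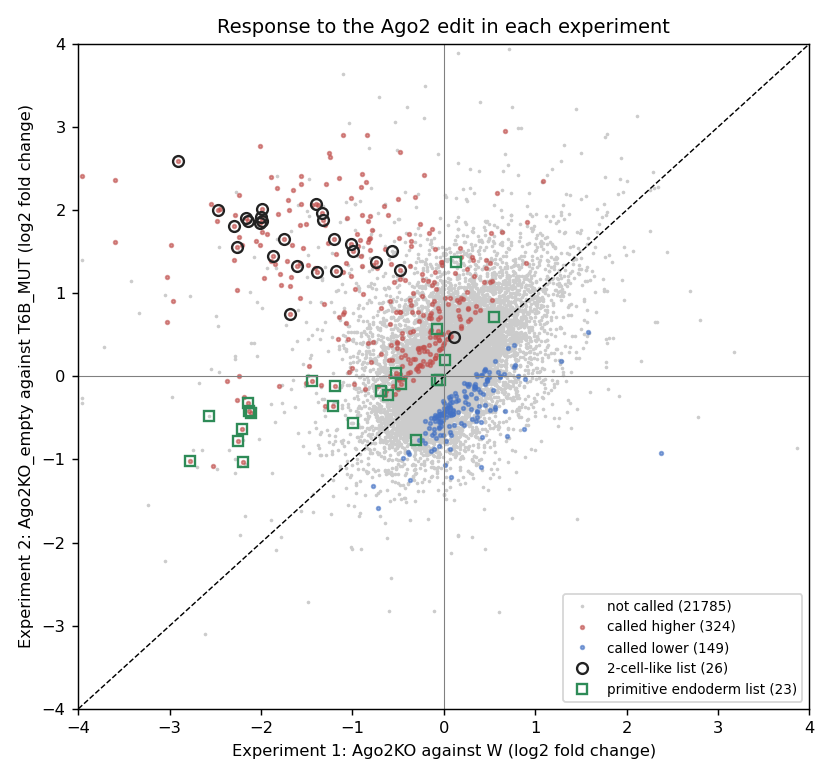
Log2 fold change of each tested gene in Experiment 1 (horizontal) and Experiment 2 (vertical), with the line of equal response dashed, called genes coloured and 2 lists outlined. The 2-cell-like list lies mostly at upper left, below 0 in Experiment 1 and above 0 in Experiment 2, and most of the primitive endoderm list lies at left near 0 on the vertical axis; 9 genes fall outside the axes.

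The class that turned around was that of genes marking the 2-cell-like state. These genes fell in Ago2KO and rose in the libraries labelled Ago2KO_empty. Of 26 list members tested, 24 (92.3%) were called higher in the difference, against 1.46% of all genes, and none lower. The median difference was 3.31, made of a median response of −1.65 in Experiment 1, where 22 members fell, and 1.65 in Experiment 2, where 25 rose. Beside these stand called rates over all genes of 6.77% lower in Experiment 1 and 16.8% higher in Experiment 2. All 24 kept their sign for every choice of libraries, which is not a separate test of the calls. The 2 members not called were Duxf3, at or under 0.411 CPM in every library (difference 2.08, adjusted p 0.264, edgeR quasi-likelihood), and Zfp809 (difference 0.36, adjusted p 0.0525). The list is low in these cells as a whole: 18 of its 26 members had a mean under 2 on the log2 CPM scale.

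Zscan4 genes encode zinc finger proteins tied to telomere maintenance and are the defining transcripts of this state. Zscan4d (ENSMUSG00000090714, chromosome 7, 11161374 to 11166159, minus strand) stood at 3.24, 3.85 and 2.92 CPM in W and at 0.742, 0.537 and 0.499 CPM in Ago2KO. It stood at 3.68, 4.64 and 4.04 CPM in T6B_MUT and at 17.4, 14.0 and 17.8 CPM in the libraries labelled Ago2KO_empty. Both controls were thus near 4 CPM while the edited groups lay on opposite sides of them, with no overlap in either experiment. Its response was −2.48 in Experiment 1 (SE 0.19) and 2.00 in Experiment 2 (SE 0.13), with a difference of 4.48 (SE 0.22, adjusted p 2.08e-13, edgeR quasi-likelihood). All 9 Zscan4 genes tested were called, with differences from 3.73 to 4.48, and 4 others of them, Zscan4-ps3, Zscan4-ps2, Zscan4c and Zscan4a, had 4.35, 4.24, 4.07 and 4.02.

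The Zscan4 genes form a tandem family on chromosome 7 whose members are near-identical, so reads may be split between them and the value of a single gene is uncertain. Their promoters show this likeness. RefSeq promoter windows of 4 members (GRCm38.p6) are shown because these 4 genes moved together, each as the 120 bases that end with the motif TATAAAAG, here in capitals.
Zscan4b, chr7:10905074-10905193, minus strand: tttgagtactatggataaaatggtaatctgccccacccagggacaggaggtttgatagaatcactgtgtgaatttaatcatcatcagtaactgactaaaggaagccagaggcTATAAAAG
Zscan4c, chr7:11005579-11005698, plus strand: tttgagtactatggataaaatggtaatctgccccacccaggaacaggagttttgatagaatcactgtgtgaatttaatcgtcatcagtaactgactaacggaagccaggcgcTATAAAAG
Zscan4d, chr7:11166206-11166325, minus strand: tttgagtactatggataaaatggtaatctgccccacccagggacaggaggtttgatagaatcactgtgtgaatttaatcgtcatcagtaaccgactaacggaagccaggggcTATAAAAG
Zscan4f, chr7:11397772-11397891, plus strand: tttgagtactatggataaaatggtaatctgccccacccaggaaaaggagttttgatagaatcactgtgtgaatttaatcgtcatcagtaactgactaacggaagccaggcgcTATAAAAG
Any pair of these windows matched at 113 to 119 of 120 bases. The motif lay 23 to 57 bases before the RefSeq start. It was found on either strand in 1.7% of the 32851 promoters of 300 bases in that table, and a match is a description of the letters only.

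Eif1ad genes, a second tandem family of this state related to a translation initiation factor, had 8 of 9 members called higher, with a median difference of 2.66 and a lowest of −0.01. Eif1ad7 (ENSMUSG00000079029, chromosome 12, 88270640 to 88274500, minus strand) was at 4.78, 3.71 and 4.0 CPM in W and at 1.51, 1.58 and 1.64 CPM in Ago2KO. It was at 6.69, 5.52 and 6.10 CPM in T6B_MUT and 29.7, 20.1 and 27.5 CPM in the libraries labelled Ago2KO_empty. Again each edited group lay wholly outside its control, below it in Experiment 1 and above it in Experiment 2. The difference was 3.48 (SE 0.20, adjusted p 4.56e-12, edgeR quasi-likelihood). Eif1ad8 had 3.30 and Gm21293, a gene of chromosome 10 that overlaps another on its strand, 3.28.

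Counts over other gene families were made after their values were seen. All 5 Usp17l genes, which encode deubiquitinases, were called higher, as were 5 of 7 Tdpoz and Spopfm genes, both Tcstv genes and 9 of 22 Pramel genes. The call of Tcstv1 was lost in 9 of 22 alternatives, among them those without replicate 1 labelled Ago2KO_empty and without both replicates 1 and 2. Median differences in these families were 3.82, 2.97, 2.82 and 2.15. Of 12 Obox genes and 3 Duxf genes none was called, with medians of 1.92 and 2.03 at low levels. These families too consist of near-identical copies, and the value of each copy is uncertain.

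The same genes were followed in the groups that the difference does not use. The summed level of the Zscan4 and Eif1ad genes was 44.4 to 49.8 CPM in W, 14.7 to 17.3 CPM in Ago2KO and 8.25 to 11.0 CPM in Trim71KO. In Experiment 2 it was 61.8 to 67.7 CPM in T6B_MUT, 73.9 to 79.5 CPM in Trim71KO_empty, 200 to 252 CPM in the libraries labelled Ago2KO_empty and 254 to 277 CPM with active T6B (T6B_WT). Both edited lines were thus below W in Experiment 1, and neither was below T6B_MUT in Experiment 2. When the Trim71-edited line of each experiment took the place of the control, so that both groups of Experiment 2 carried the empty plasmid, the median difference of the list was 0.45. Only 2 of its 26 members were called there, both higher, where 7.57% of all genes were called, 3.78% higher and 3.8% lower. Zscan4d had a value of 0.72 in that comparison (SE 0.35, adjusted p 0.221, edgeR quasi-likelihood), which shares the edited libraries with the main one. In these bulk libraries a larger share of 2-cell-like cells and more RNA per cell cannot be told apart.

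**Figure D2:**
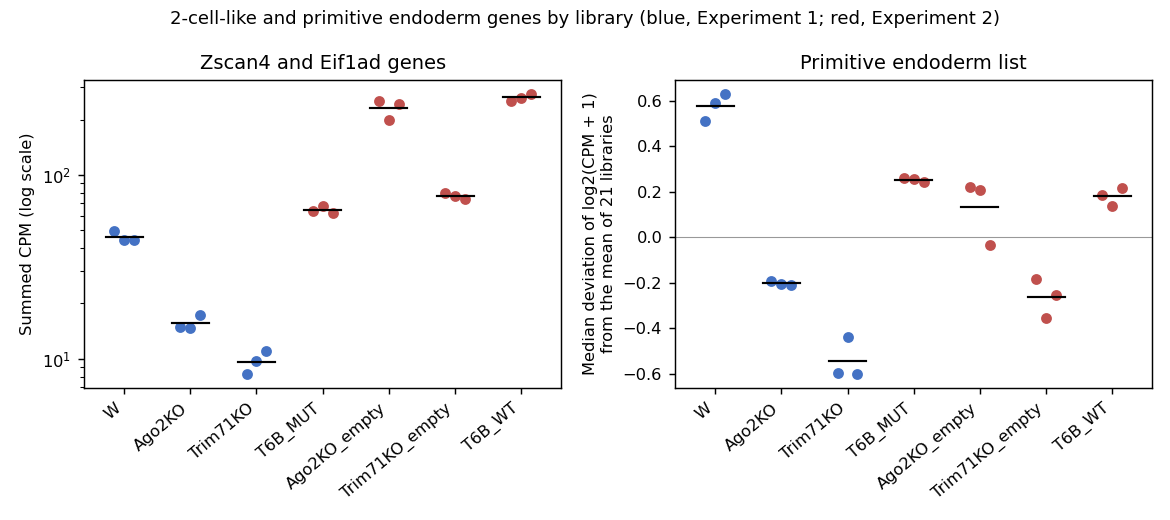
Left, summed CPM of the Zscan4 and Eif1ad genes on a log axis in each library of the 7 groups; right, the median over the primitive endoderm list of the deviation of log2(CPM + 1) from the mean of all 21 libraries, with bars for group means. The sum is 14.7 to 17.3 CPM in Ago2KO and 200 to 252 CPM in the libraries labelled Ago2KO_empty, while in the right panel the fall from W to Ago2KO has no counterpart of that size in Experiment 2.

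Primitive endoderm genes, which mark the extraembryonic lineage that lines the early yolk sac, fell in Ago2KO and changed less in Experiment 2. Of 23 members tested, 12 (52.2%) were called higher in the difference, against 1.46% of all genes, and none lower. The median difference was 0.86, with a median response of −0.99 in Experiment 1, where 15 fell and 1 rose, and −0.22 in Experiment 2, where 5 fell and 4 rose. Over all genes 6.77% fell and 8.3% rose in Experiment 1, and 15% fell and 16.8% rose in Experiment 2, so the counts of Experiment 2 are near the background. Without both replicates 1 and 2 labelled Ago2KO_empty, 7 members were called and the median was 0.51: Cubn, Dab2, Gata4, Lama1 and Lamb1 lost the call. Per library, the median deviation of the list was 0.22 and 0.21 in replicates 1 and 2 labelled Ago2KO_empty and −0.03 in replicate 3, against 0.24 to 0.26 in T6B_MUT. It was 0.51 to 0.63 in W and −0.21 to −0.19 in Ago2KO. From Experiment 1 to Experiment 2 the median shift of the list was −0.54 between the controls and 0.58 between the edited groups.

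Pdgfra (chromosome 5, 75152292 to 75198215, plus strand), a growth factor receptor of this lineage, stood at 12.2, 11.3 and 11.6 CPM in W and 2.29, 3.29 and 2.51 CPM in Ago2KO. It stood at 9.06, 8.61 and 8.43 CPM in T6B_MUT and 6.37, 8.49 and 6.04 CPM in the libraries labelled Ago2KO_empty. The groups were far apart in Experiment 1, and in Experiment 2 one edited library lay within the range of the controls. The response was −2.14 in Experiment 1 (SE 0.14, adjusted p 3.17e-11) and −0.32 in Experiment 2 (SE 0.13, adjusted p 0.0530), with a difference of 1.82 (SE 0.19, adjusted p 3.74e-07, edgeR quasi-likelihood). Annotated genes overlap Pdgfra on both strands, so the origin of its reads is uncertain.

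The members called higher include both transcription factors and matrix genes of the lineage. Gata6, a factor that directs the lineage, was at 6.52, 7.10 and 6.79 CPM in W, 1.53, 1.31 and 1.82 CPM in Ago2KO, 4.40, 3.45 and 3.96 CPM in T6B_MUT and 2.80, 3.30 and 2.65 CPM in the libraries labelled Ago2KO_empty. It fell in both experiments without overlap, by 2.11 and by 0.44 on the log2 scale, a difference of 1.67 (SE 0.21, adjusted p 1.25e-05, edgeR quasi-likelihood). Sox17, Foxq1 and Gata4, other factors, had differences of 1.48, 1.71 and 0.86. Col4a1 and Col4a2, the chains of basement membrane collagen, had 1.07 and 1.39, and the laminin chains Lama1 and Lamb1 0.56 and 0.38. The call of Gata4 was lost in 9 of 23 alternatives. Lama1 had −0.35 with the Trim71-edited lines as reference (adjusted p 0.0314, edgeR quasi-likelihood), called in the opposite direction.

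Col4a1 illustrates the size at a higher level. It stood at 154, 162 and 170 CPM in W, 76.6, 64.6 and 72.4 CPM in Ago2KO, 142, 137 and 133 CPM in T6B_MUT and 132, 113 and 134 CPM in the libraries labelled Ago2KO_empty. Ago2KO was far below W, whereas the groups of Experiment 2 overlapped, and the difference of 1.07 had an SE of 0.10 (adjusted p 1.02e-07, edgeR quasi-likelihood). Cubn, an endocytic receptor of visceral endoderm, had a difference of 1.58 (0.85 without both replicates 1 and 2 labelled Ago2KO_empty), Srgn, a proteoglycan core, 1.77, and Dab2, an endocytic adaptor, 1.17. Members with values near 0 were Sparc (−0.00) and Serpinh1 (0.03), both present at 52 CPM or more in every library, and Lamc1 (0.19).

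With the Trim71-edited lines in place of the controls, the median of the primitive endoderm list was −0.08, with 2 members called higher and 2 lower, against 3.78% and 3.8% of all genes. Pdgfra had 0.01 in that comparison (SE 0.29, adjusted p 0.995, edgeR quasi-likelihood). In Trim71KO itself Pdgfra was at 1.05, 1.19 and 1.40 CPM, below Ago2KO, and in Trim71KO_empty at 2.78, 3.71 and 3.12 CPM. The fall of Pdgfra in each Trim71-edited line was therefore also larger in Experiment 1 than in Experiment 2, at −3.26 and −1.44, values that share their controls with the Ago2 responses.

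**Figure D3:**
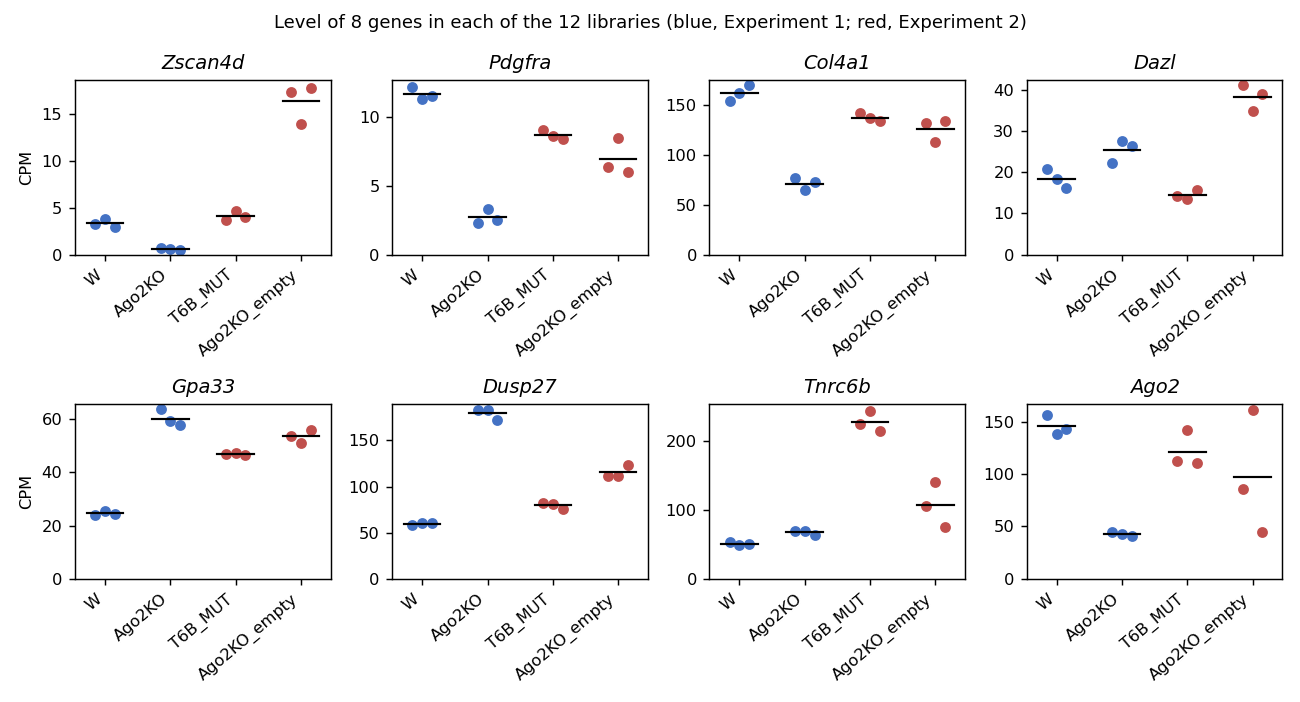
CPM of 8 genes in each of the 12 libraries (points) with the group mean (bar), on axes that start at 0. Zscan4d and Dazl are highest in the libraries labelled Ago2KO_empty, Pdgfra and Col4a1 are lowest in Ago2KO, Gpa33 and Dusp27 are highest in Ago2KO, Tnrc6b is highest in T6B_MUT, and the 3 libraries labelled Ago2KO_empty spread widely in Ago2 and Tnrc6b.

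Germline genes were the next class by median. Of 23 tested, 5 (21.7%) were called higher, against 1.46% of all genes, and none lower, and the median difference was 0.52. With the Trim71-edited lines in place of the controls the median was −0.04. There 3 members were called higher and 2 lower, against 3.78% and 3.8% of all genes. Dazl, an RNA-binding protein of germ cells, was at 20.8, 18.5 and 16.1 CPM in W and 22.2, 27.8 and 26.4 CPM in Ago2KO, then 14.4, 13.6 and 15.7 CPM in T6B_MUT and 41.2, 35.0 and 39.1 CPM in the libraries labelled Ago2KO_empty. It was higher in every edited library than in any control of its experiment, and rose by 0.46 and by 1.40, a difference of 0.94 (SE 0.16, adjusted p 0.00105, edgeR quasi-likelihood). In Trim71KO_empty Dazl was at 78.1, 65.4 and 59.8 CPM, above every library labelled Ago2KO_empty. Taf7l, a testis form of a general transcription factor, had −0.35 in Experiment 1 (adjusted p 0.0893) and rose by 0.78 in Experiment 2, a difference of 1.12 (SE 0.18, adjusted p 0.000516, edgeR quasi-likelihood). Sycp2 and Sycp1, parts of the meiotic synaptonemal complex, had differences of 0.96 and 0.90, and Hormad1, a meiotic chromosome axis protein, 0.69. The calls of Sycp2 and Hormad1 were lost without both replicates 1 and 2 labelled Ago2KO_empty. Hormad1 lost it in 5 of 23 alternatives, among them those without replicate 1 of any of the groups W, Ago2KO, T6B_MUT or Ago2KO_empty.

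Collagens as a class had a median difference of 0.41, and 4 of 35 (11.4%) were called, all higher, against 1.46% of all genes. Besides both basement membrane chains these were Col6a5 and Col5a2. Col6a5 was at 7.24, 8.59 and 6.92 CPM in W, 9.12, 9.02 and 9.95 CPM in Ago2KO, 1.75, 1.76 and 1.54 CPM in T6B_MUT and 4.57, 4.52 and 4.52 CPM in the libraries labelled Ago2KO_empty. Its control level differed between the experiments more than either response, and its difference was 1.13 (SE 0.20, adjusted p 0.00121, edgeR quasi-likelihood). Col5a2 had 0.97, and lost the call in 4 of 23 alternatives, among them that without both replicates 1 and 2 labelled Ago2KO_empty. With the Trim71-edited lines as reference the median of the collagens was −0.09. There 1 was called higher and 2 lower, against 3.78% and 3.8% of all genes.

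Among genes of the argonaute and microRNA machinery, 1 of 18 was called, where 2.13% of all genes were. Tnrc6b (chromosome 15, 80711313 to 80941085, plus strand), the TNRC6 protein from which the T6B peptide is taken, was at 53.1, 49.4 and 50.0 CPM in W, 69.2, 69.3 and 63.1 CPM in Ago2KO, 225, 243 and 215 CPM in T6B_MUT and 105, 140 and 74.5 CPM in the libraries labelled Ago2KO_empty. The T6B_MUT libraries lay far above W, by 2.16 on the log2 scale, and T6B_WT was as high, at 228 to 263 CPM, while Trim71KO_empty lay at 66.9 to 83.4 CPM. The response was 0.40 in Experiment 1 (adjusted p 0.107) and −1.09 in Experiment 2 (adjusted p 8.46e-05), a difference of −1.49 (SE 0.22, adjusted p 0.00128, edgeR quasi-likelihood), the most negative among the named genes. The control plasmid encodes a piece of this gene, and reads from plasmid and genome were not separated here. With the Trim71-edited lines as reference the value was 0.48 (SE 0.22, adjusted p 0.225, edgeR quasi-likelihood). Ago1, Tnrc6a, Tnrc6c and Dicer1 had differences from −0.02 to 0.13, none called. Ago4 had 0.25 and Ago3 0.79, neither called in the main fit. Ago3 ran from −0.02 to 1.07 over 23 alternatives and was called in 1 of them. Ago1 and Tnrc6a rose in both experiments, Ago1 by 0.38 and 0.45 and Tnrc6a by 0.53 and 0.66.

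MicroRNA targets were examined by list and by sequence. Mature microRNAs of the miR-290 and miR-302 clusters are shown because their shared seed defines the sites counted next, with the seed (bases 2 to 8) in capitals, from RefSeq (GRCm38.p6).
miR-291a-3p: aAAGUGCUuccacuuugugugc
miR-294-3p: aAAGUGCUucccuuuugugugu
miR-295-3p: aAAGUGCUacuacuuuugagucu
miR-302b-3p: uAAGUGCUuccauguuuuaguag
miR-302d-3p: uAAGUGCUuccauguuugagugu
All 5 carry the seed AAGUGCU, whose match in DNA letters is AGCACTT. None of 15 listed targets of this family was called in the difference by edgeR's quasi-likelihood test, which called 2.13% of all genes, or by DESeq2 or limma-voom. Of these targets 3 had an unadjusted p under 0.05, and their median difference was −0.03. In Experiment 1 their median response was 0.21, with 7 called higher and 3 lower, against 8.3% and 6.77% of all genes. In Experiment 2 it was 0.14, with 7 higher and 5 lower, against 16.8% and 15% of all genes. Ei24, an endoplasmic reticulum protein of the p53 response chosen after its values were seen, was at 99.2, 105 and 102 CPM in W, 171, 165 and 161 CPM in Ago2KO, 108, 109 and 108 CPM in T6B_MUT and 175, 166 and 179 CPM in the libraries labelled Ago2KO_empty. It rose by 0.70 and by 0.68 with no overlap in either experiment, and the difference was −0.02 (SE 0.07).

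Over all protein-coding genes with an annotated 3′ UTR, the median response grew with the number of seed matches in both experiments. It was −0.01, 0.06 and 0.08 in Experiment 1 and 0.00, 0.13 and 0.18 in Experiment 2 for 12411 genes without a match, 2027 with 1 and 446 with 2 or more. The median differences were −0.00, 0.04 and 0.08, and 2.68%, 2.27% and 1.35% of these genes were called, close to the 2.13% of all genes. Gene length moved in the same order, with a median difference of −0.06 in the shortest class of 4 equal classes by length and 0.07 in the longest. From shortest to longest the median response rose from −0.08 to 0.05 in Experiment 1 and from −0.12 to 0.15 in Experiment 2. The part of length in the responses and differences of the seed classes was not tested. No set of targets was tested here beyond these counts.

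**Figure D4:**
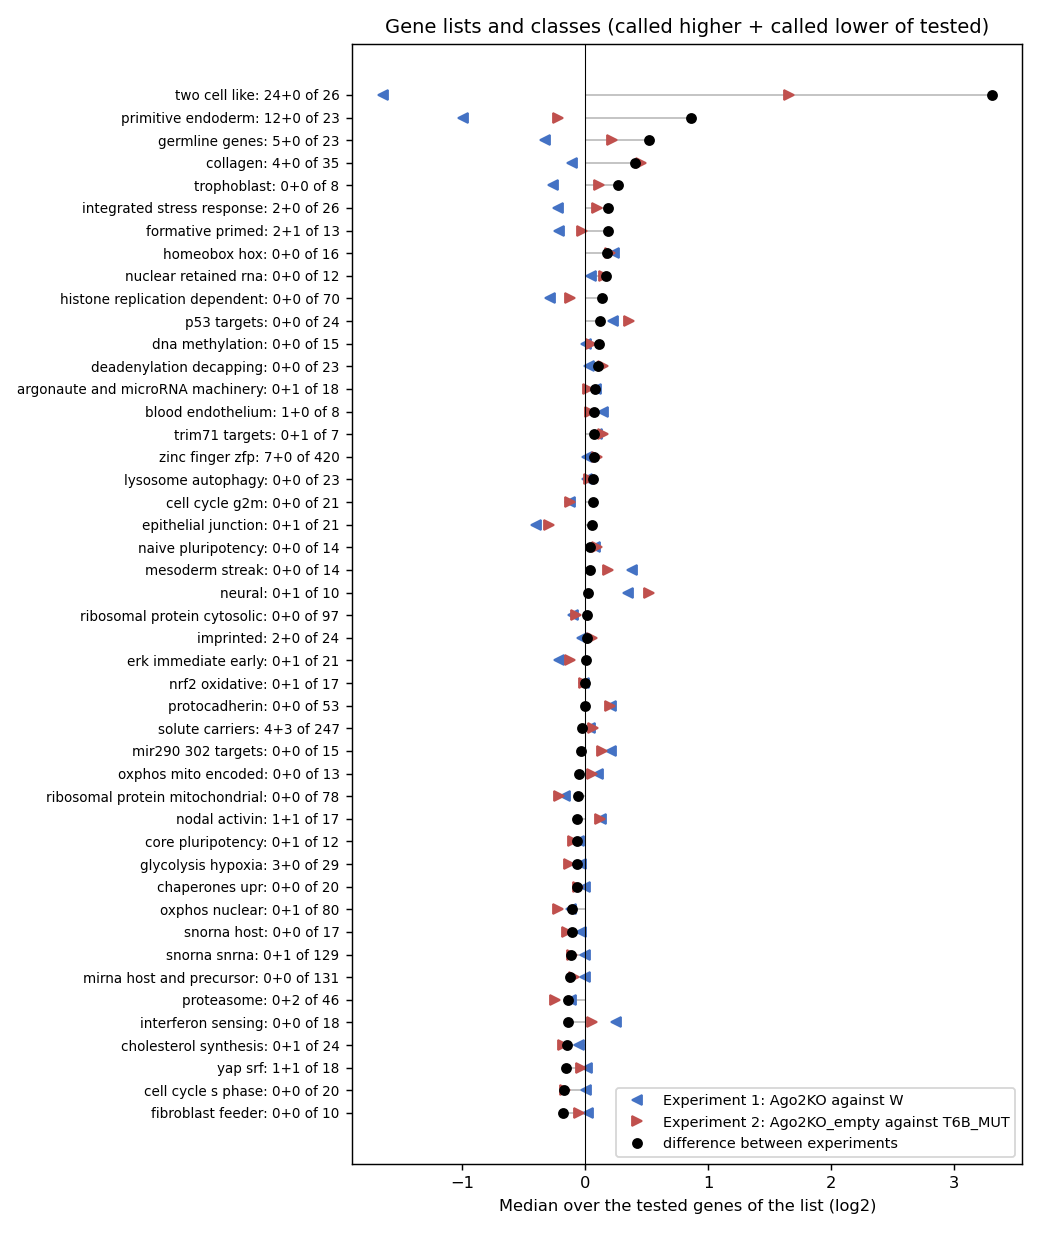
Median over the tested genes of each list or class of the response in Experiment 1, the response in Experiment 2 and their difference, all in log2 units; labels give the genes called higher and lower of those tested. The 2-cell-like list stands at 3.31 and the primitive endoderm, germline and collagen rows at 0.86, 0.52 and 0.41, while the other 42 rows lie between −0.18 and 0.27.

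Smaller classes had few called members, and over all genes 1.46% were called higher and 0.669% lower. Of 13 formative and primed pluripotency genes, Otx2 and Lef1, transcription factors of that state, were called higher and Etv4, a target of ERK signalling, lower. Otx2 was at 31.2, 29.1 and 29.2 CPM in W, 23.0, 25.1 and 22.8 CPM in Ago2KO, 22.3, 21.8 and 22.8 CPM in T6B_MUT and 25.7, 25.4 and 26.4 CPM in the libraries labelled Ago2KO_empty. It fell by 0.34 and rose by 0.21, and the difference was 0.55 (SE 0.10, adjusted p 0.00181, edgeR quasi-likelihood). Etv4 had −0.59 and Lef1 1.21, the latter at levels of 3.85 to 5.53 CPM in Experiment 1 and 0.309 to 1.03 CPM in Experiment 2, and neither was called without both replicates 1 and 2 labelled Ago2KO_empty. Lef1 lost the call in 5 of 23 alternatives, among them that without replicate 2 of this group. Of 24 imprinted genes, Igf2, a fetal growth factor, and H19, the noncoding RNA beside it, were called higher at 1.41 and 0.96. The call of H19 was lost without W replicate 2, Ago2KO replicate 2, T6B_MUT replicate 2 or T6B_MUT replicate 3 (0.84 to 1.14 over all alternatives). Naive pluripotency factors (0 of 14), p53 targets (0 of 24), interferon and RNA sensing genes (0 of 18), deadenylation and decapping factors (0 of 23), DNA methylation genes (0 of 15) and chaperones (0 of 20) held no called gene in edgeR's quasi-likelihood test. At an unadjusted p under 0.05 these 6 lists held 2, 4, 5, 0, 3 and 3 genes in that order, and DESeq2 called 1 chaperone and none of the others. Their median differences lay between −0.14 and 0.12. Over all genes 2.13% were called, so lists of this size without a call lie near the background.

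Some classes leaned one way with few calls. Of 20 S phase genes all had a negative difference, with a median of −0.17. None was called by edgeR's quasi-likelihood test, which called 2.13% of all genes, or by DESeq2, and 9 had an unadjusted p under 0.05. In the separate responses 11 fell in Experiment 2, where 15% of all genes did, and 1 in Experiment 1, where 6.77% did. Of 24 genes of cholesterol synthesis 22 were negative, with a median of −0.15. Proteasome genes had a median of −0.14, with 37 of 46 negative and Psmb10 and Psme2 called lower, and nuclear-encoded genes of oxidative phosphorylation −0.10, with Sdhc called lower of 80. Over all genes 0.669% were called lower. These leanings depended on the libraries. Without both replicates 1 and 2 labelled Ago2KO_empty the medians were −0.07 for S phase, −0.09 for cholesterol synthesis, 0.00 for the proteasome and 0.03 for oxidative phosphorylation. Psme2, Psmb10 and Sdhc were not called in that fit (−0.32, −0.30 and −0.23), and they lost the call in 16, 11 and 4 of 23 alternatives.

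The lower genes were fewer and smaller in difference. Gpa33, an antigen of intestinal epithelium, and Dusp27, a phosphatase-like protein of muscle, are neighbours on chromosome 1 (166130238 to 166166510 and 166098148 to 166127922). Gpa33 was at 24.2, 25.6 and 24.4 CPM in W, 63.7, 59.2 and 57.8 CPM in Ago2KO, 46.9, 47.4 and 46.6 CPM in T6B_MUT and 53.7, 51.1 and 56.0 CPM in the libraries labelled Ago2KO_empty. It rose in both experiments without overlap, by 1.28 and by 0.19, and the difference was −1.09 (SE 0.08, adjusted p 1.41e-09, edgeR quasi-likelihood). Dusp27 rose by 1.58 and by 0.53, a difference of −1.05 (SE 0.09, adjusted p 1.90e-08, edgeR quasi-likelihood). With the Trim71-edited lines as reference both remained called, at −0.77 and −0.76.

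Sfn, the 14-3-3 protein of epithelia, fell in both experiments. It was at 30.7, 33.1 and 33.5 CPM in W, 20.4, 18.9 and 19.9 CPM in Ago2KO, 15.3, 16.3 and 13.7 CPM in T6B_MUT and 5.03, 4.55 and 5.55 CPM in the libraries labelled Ago2KO_empty. The control of Experiment 2 was already below Ago2KO, and the fall was by 0.72 in Experiment 1 and by 1.58 in Experiment 2, a difference of −0.86 (SE 0.13, adjusted p 0.000182, edgeR quasi-likelihood). Dppa5a, an RNA-binding protein of pluripotent cells, and its copies Dppa5b and Dppa5c had differences of −0.54, −0.89 and −0.85. All 3 fell short of the threshold without both replicates 1 and 2 labelled Ago2KO_empty (−0.28, −0.54 and −0.52), and reads of such copies may be split. Sox1, a neural transcription factor, rose by 0.36 and fell by 0.43, a difference of −0.78 (SE 0.15, adjusted p 0.00315, edgeR quasi-likelihood). Against the Trim71-edited lines it was 0.55 (adjusted p 0.0252, edgeR quasi-likelihood), called in the opposite direction. Sox1 lies on chromosome 8. In that comparison the 653 genes of chromosome 8 at a mean log2 CPM of 2 or more had a median of 0.12. The median of all 12660 such genes was 0.01, and the part of this shift in the value of Sox1 was not tested. Inhbb, a subunit of activins, had −0.48, and lost the call in 8 of 23 alternatives, 7 of which leave out 1 library.

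The called genes were not spread evenly over the genome. This was seen in the data and the borders below were chosen after the values were seen. On chromosome 10, 166 genes at a mean level of 2 or more (log2 CPM) start between 20 and 72 Mb. Of these 27 (all higher) were called, against 144 higher and 134 lower of 12660 such genes in all, and 87.3% had a positive difference, against 46.8%. Their median difference was 0.24, with a response of −0.31 in Experiment 1 and −0.07 in Experiment 2. The rest of chromosome 10 had −0.01, −0.04 and −0.06.

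The segment was highest in W and in Trim71KO_empty (0.10 to 0.15) and lowest in Ago2KO. Relative to other chromosomes, its median deviation was 0.16, 0.11 and 0.11 in the W libraries and −0.17, −0.16 and −0.13 in Ago2KO. It was −0.03, −0.03 and 0.01 in T6B_MUT and −0.06, −0.10 and −0.07 in the libraries labelled Ago2KO_empty. The 4 groups did not overlap in this measure, which follows in part from choosing the segment on these same libraries. With the Trim71-edited lines as reference the median of the segment was −0.03. Called genes in it include Nodal, a signalling ligand of the TGF-beta family, Foxo3, a stress-response transcription factor, Ccn2, a matrix-associated target of YAP, Gja1, a gap junction protein, and P4ha1, a collagen hydroxylase. Their differences were 0.62, 0.63, 0.91, 0.54 and 0.43, and the call of P4ha1 was lost in 11 of 23 alternatives.

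**Figure D5:**
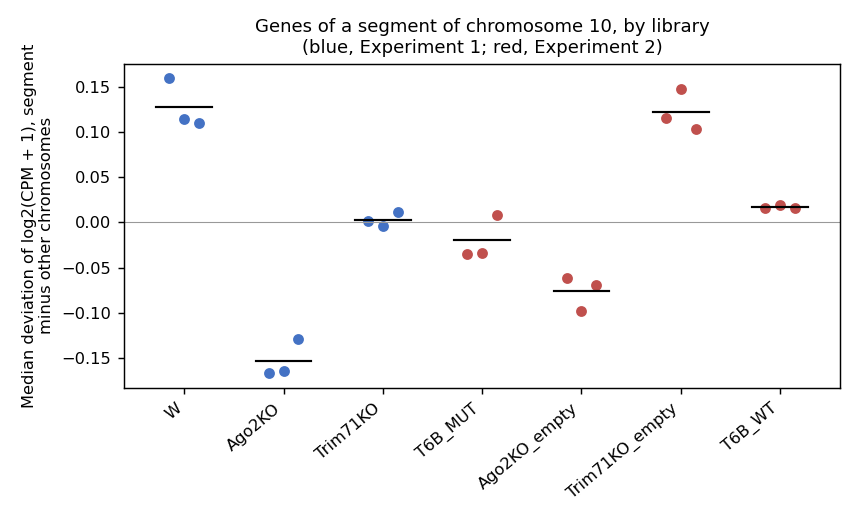
Median over 166 genes between 20 and 72 Mb of chromosome 10 of the deviation of log2(CPM + 1) from the mean of 21 libraries, less the same median over other chromosomes, in each library (points) with group means (bars). W lies at 0.11 to 0.16 and Ago2KO at −0.17 to −0.13, and the groups of Experiment 2 in the difference lie between −0.10 and 0.01.

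Nodal had a larger difference than the median of that segment, and unlike that median it was higher in the edited group of Experiment 2. It was at 46.1, 51.9 and 51.5 CPM in W, 41.9, 38.1 and 42.4 CPM in Ago2KO, 42.4, 43.6 and 42.9 CPM in T6B_MUT and 52.5, 51.6 and 58.7 CPM in the libraries labelled Ago2KO_empty. It fell by 0.29 and rose by 0.34 without overlap, a difference of 0.62 (SE 0.10, adjusted p 0.000299, edgeR quasi-likelihood). Against the Trim71-edited lines it was −0.39 (adjusted p 0.0154, edgeR quasi-likelihood), called in the opposite direction. Of 17 genes of Nodal and activin signalling, Nodal was the only one called higher and Inhbb the only one called lower, against 1.46% and 0.669% of all genes. On chromosome 1, 24 of 763 genes at a mean level of 2 or more (log2 CPM) were called lower and 9 higher, with a median difference of −0.09 and a positive difference in 32.1%. Of all 12660 genes at that level, 134 were called lower and 144 higher, and 46.8% had a positive difference.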

How the data were processed

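The authors deposited 1 table of 22512 genes with raw read counts, RPKM values and a gene length for each library, per the file headers. Counts are whole numbers and were not normalized by the authors. RPKM values, deposited scaled to gene length and library size, served only for checking. The submitters' processing notes name bcl2fastq 2.17, STAR 2.7.3a and GRCm38 (mm10); the counting tool, gene filter and use of strand are not given in the sources used here. All 21 libraries entered 1 fit of 7 group means with edgeR 4.0.16 in R 4.3.3 (quasi-likelihood F test, robust dispersion, TMM, filterByExpr with a minimum count of 10, Benjamini-Hochberg adjustment over 22258 genes). TMM factors of the 21 libraries lay between 0.956 and 1.04. At 29.6 M to 57.9 M counts per library in the 4 groups, the median SE of a difference was 0.18. In counts simulated from these libraries for this difference, with 21760 genes run, 98 of 100 genes changed by 1 on the log2 scale and 99 of 100 changed by 2 were recovered, with 8 false calls. The changed genes had a mean level of at least 2 (log2 CPM), and each gene was given the same spread in every group. Recovery at lower levels, or with the wider spread of the libraries labelled Ago2KO_empty, was not simulated. Alternatives used limma 3.58.1 and DESeq2 1.42.0.

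The series' design text calls the replicates biological, and p-values measure the spread between these libraries. Coordinates, overlaps and 3′ UTRs are from GENCODE M21 (GRCm38), in which 22480 genes were matched; 22492 genes had a symbol. Of the 46 lists and classes described, all were chosen with earlier results of these data known. Genes were named by a rule: the 10 largest differences in each direction among called genes that carry a symbol, reach 2 in mean log2 CPM and keep their sign for every choice of libraries, 3 per pattern and direction, up to 4 called members per list with the smallest p, and a fixed set of machinery and pluripotency genes. Further list members, gene families and the chromosome 10 segment were named after their values were seen. No set test was run. The result of 1 named gene is not reported here.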

Additional observations from a re-analysis of the deposited data

Results flagged for a closer look

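For 90 named genes the response to the Ago2 edit differed between the experiments by the test of the difference itself (edgeR quasi-likelihood). The values below are log2 differences, Experiment 2 minus Experiment 1, and carry no explanation. Among the negative ones, the calls of Pclaf, Wfdc2, Acta1, Gm15310, Slc15a1 and Snora62 were lost in 16, 15, 14, 12, 9 and 6 of 23 alternatives. Among the positive ones, those of Vldlr, P4ha1, Gata4, Lamb1 and Pfkp were lost in 13, 11, 9, 4 and 3. The lowest values of Runx1 and Ddr2 over the alternatives were 0.88 and 0.92, and each lost its call in 1. Further losses are given with the genes in the text. With the Trim71-edited lines as reference, Tgm2 (0.86) and Gsr (0.61) were called in the opposite direction, as were Sox1, Nodal and Lama1. Of these, Gsr and Sox1 lie on chromosome 8, where genes at a mean log2 CPM of 2 or more had a median of 0.12 with that reference.

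Zscan4 genes stood at 4.48 (Zscan4d), 4.35 (Zscan4-ps3), 4.24 (Zscan4-ps2), 4.10 (Zscan4b), 4.07 (Zscan4c), 4.02 (Zscan4a), 3.91 (Zscan4e), 3.86 (Zscan4f) and 3.73 (Zscan4-ps1). Usp17l genes stood at 5.50 (Usp17la), 4.0 (Usp17lc), 3.82 (Usp17lb), 2.94 (Usp17le) and 2.85 (Usp17ld). Eif1ad genes stood at 3.48 (Eif1ad7), 3.30 (Eif1ad8), 2.60 (Eif1ad4) and 1.76 (Eif1ad6). Other genes of the 2-cell-like list or of large positive difference were Gm6763 (3.86), Gm20765 (3.41), Gm8764 (3.32), Gm21293 (3.28), Tcstv3 (3.20), Gm21761 (2.65), Tmem92 (2.51), Sp110 (2.45), Tcstv1 (2.43) and Zfp352 (2.12).

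Genes of primitive endoderm and matrix were Pdgfra (1.82), Srgn (1.77), Foxq1 (1.71), Gata6 (1.67), Cubn (1.58), Sox17 (1.48), Col4a2 (1.39), Dab2 (1.17), Col6a5 (1.13), Col4a1 (1.07), Col5a2 (0.97), Gata4 (0.86), Lama1 (0.56) and Lamb1 (0.38). Germline genes were Taf7l (1.12), Sycp2 (0.96), Dazl (0.94), Sycp1 (0.90) and Hormad1 (0.69). Other positive differences were those of Runx1 (1.70), Slc44a3 (1.60), Igf2 (1.41), Ddr2 (1.33), Adgrl3 (1.22), Lef1 (1.21), H19 (0.96), Ryr3 (0.95), Eif4g3 (0.94), Ccn2 (0.91), Vldlr (0.88), P4ha2 (0.71), Nodal (0.62), Slc16a6 (0.60), Stc2 (0.57), Otx2 (0.55), Slc25a16 (0.44), P4ha1 (0.43) and Pfkp (0.40).

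Negative differences were those of Tnrc6b (−1.49), Snora62 (−1.15), Gpa33 (−1.09), Dusp27 (−1.05), Gm6798 (−0.96), Dppa5b (−0.89), Sfn (−0.86), Dppa5c (−0.85), Gm10112 (−0.82), Gm15310 (−0.80), Pclaf (−0.80), Sox1 (−0.78), Slc52a3 (−0.78), Tgm2 (−0.70), Wfdc2 (−0.66), Slc15a1 (−0.65), Etv4 (−0.59), Dppa5a (−0.54), Psmb10 (−0.49), Inhbb (−0.48), Acta1 (−0.47), Sdhc (−0.43), Psme2 (−0.41) and Gsr (−0.34).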

How the results depend on the processing

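Of 90 named genes called in the difference, 54 were called in every alternative, 13 lost the call only without both replicates 1 and 2 labelled Ago2KO_empty (an alternative chosen after seeing the data), and no call changed sign. Leaving out 1 library at a time gave 269 to 1634 called in the difference, 201 to 1000 higher and 50 to 634 lower. The same gave 2367 to 3023 called in Experiment 1, 1382 to 1571 higher and 985 to 1488 lower, and 5345 to 8387 in Experiment 2. For Ago2 it gave a difference of 0.88 to 1.79. Without both replicates 1 and 2 labelled Ago2KO_empty the remaining library is assumed to vary like the other groups; there were 215 calls in the difference (177 higher, 38 lower) and 2408 in Experiment 2 (1557 higher, 851 lower). Requiring an absolute difference of 1 left 205 (195 higher, 10 lower). Scaling by library totals alone gave 269 higher and 401 lower, a split that turned, with a median over the 2-cell-like list of 3.24. DESeq2 called the Ago2 difference of 1.45. Replicate numbers did not pair the libraries (correlations of same-numbered deviations from −0.69 to 0.09 in Experiment 1 and −0.10 to 0.40 in Experiment 2). With the replicate block 404 genes were called (289 higher, 115 lower), 3334 in Experiment 1 and 6899 in Experiment 2. The other alternatives kept these counts within 1.5 times. The cause of these moves was not tested. At this depth, genes under 1 CPM carry wide errors, and reads shared between near-identical copies limit single genes of tandem families.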

Other observations

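A few called genes lie outside every list described above. Eif4g3, a scaffold of translation initiation, stood at 14.7 to 15.6 CPM in W, 5.98 to 6.46 CPM in Ago2KO, 18.1 to 20.4 CPM in T6B_MUT and 10.6 to 19.6 CPM in the libraries labelled Ago2KO_empty. It fell by 1.3 in Experiment 1 and by 0.36 in Experiment 2, a difference of 0.94 (SE 0.19, adjusted p 0.00808, edgeR quasi-likelihood). It was 0.46 and not called without both replicates 1 and 2 of the last group. Its call was also lost without Ago2KO replicate 1 and in the fit of the 12 libraries alone. Ryr3, an intracellular calcium channel, rose in both experiments, by 0.91 and by 1.86, from 3.91 to 5.37 CPM in W and 3.48 to 3.75 CPM in T6B_MUT. Its difference was 0.95 (SE 0.16, adjusted p 0.000975, edgeR quasi-likelihood).

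Vldlr, a lipoprotein receptor, and Stc2, a secreted glycoprotein, are the members of the integrated stress response list called in the difference. Both had a larger gap between the controls than between control and edited group. Vldlr was at 1.44 to 1.84 CPM in W and 7.54 to 8.52 CPM in T6B_MUT, and Stc2 at 9.34 to 9.94 CPM and 22.7 to 23.9 CPM. Their differences were 0.88 and 0.57, and the call of Vldlr was lost in 13 alternatives.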
